A study of Mus with 8 samples.

Results

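Hepatic stellate cells and the extracellular matrix they lay down were followed through 32 genes: 10 collagens, 3 lysyl oxidases that cross-link collagen, 4 contractile or cytoskeletal genes, 3 genes of quiescent stellate cells and pericytes, 4 receptor, ligand and surface genes, 4 matrix proteases or their inhibitors, and 4 matrix proteoglycans or glycoproteins. They were chosen by gene symbol from the 54532 genes of the deposited table, and all 32 were found there. Counts were high enough to test 27 of them; Lox, Loxl1, Tagln, Mmp13 and Timp1 were not tested. The study asked what a high-fat diet with alcohol adds to the liver injury of mice with colitis. The colitis model used 2.5% dextran sulfate sodium (DSS), which damages the lining of the colon when swallowed, and DSS was stopped on day 6. Liver RNA was sequenced from 4 libraries labelled DSS (numbers 15, 48, 49 and 50) and from 4 libraries labelled with alcohol, high-fat diet and DSS (numbers 35, 45, 65 and 71), here called the diet-alcohol group. All 8 livers came from DSS-treated mice, no liver without DSS was analysed here, and diet and alcohol were given together. The design text speaks of purified high-fat feed or of high-fat feed with alcohol. Which feed the DSS group ate is not stated in the labels. Whether the groups differ in feed as well as in alcohol is thus not known. The labels give no strain, age or batch. Nor do they state that the libraries come from different mice: p-values measure only the spread between these libraries, which may be technical.

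Stellate cells lie between hepatocytes and the sinusoidal endothelium, store retinyl esters and regulate sinusoidal tone. When the liver is injured they can lose their retinoid stores and turn into myofibroblasts, which contract and secrete fibrillar collagen, and this change is driven mainly by transforming growth factor beta and platelet-derived growth factor. Collagen chains are hydroxylated and folded inside the cell, secreted, trimmed and then cross-linked by lysyl oxidases, while matrix metalloproteinases and their tissue inhibitors set how fast the matrix is removed. A rise of Col1a1, Acta2 and Timp1 with a loss of Lrat is the usual transcript picture of this activation.

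The libraries held 12502300 to 16967839 counts each, and mitochondrially encoded transcripts took much of them: 55.8, 56.0, 69.9 and 79.1% in DSS libraries 15, 48, 49 and 50, and 42.2, 35.5, 73.0 and 30.2% in diet-alcohol libraries 35, 45, 65 and 71. Mean shares of 65.2% ± 11.4 and 45.2% ± 19.2 (SD, n = 4 each), were not separated by the test (exact two-sided permutation p = 0.143, where the smallest p possible is 0.0286). Nuclear genes were left with 2722757 to 10947612 counts per library. Library 35 stood apart, with only 784 genes in the range of 1 to 9 counts, where each of the other 7 had 4319 to 4987, so its values are named below and results are given with and without it. Levels are TMM-normalized CPM (counts scaled to a common library size), differences are log2 fold changes (diet-alcohol over DSS) with their standard error, and a gene was called changed at an adjusted p under 0.05 in edgeR's quasi-likelihood test across all 11729 genes tested.

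Among the 27 genes tested, none of those usually read as signs of stellate cell activation was called changed in the diet-alcohol livers. Timp1 and Tagln were not tested. Of the 27 genes tested, 0 were called higher and 0 lower (edgeR), where 0.588% of all tested genes were called higher and 0.674% lower, 1.26% in all. At that background a count of 0 among 27 genes does not set them apart from other genes. At an unadjusted p under 0.05 the count was again 0 by edgeR, against 11.7% of all tested genes, while DESeq2 gave 1 (Pdgfra) and limma-voom 2 (Col1a1 and Thy1), with 0 past the adjusted threshold in either, where 3.11% and 1.02% of all genes passed it. The log2 fold changes ran from -0.96 for Col1a1 to 1.31 for Pdgfra with a median of -0.14, and 11 were positive and 16 negative; over all tested genes the median was -0.01 and 49.5% were positive. Without library 35 and without the filter on low counts 0 were called as well, against 2.55% and 1.2% of all genes. In 0 of the 27 genes were the 4 libraries of one group all above the 4 of the other, which happened in 8.77% of all tested genes. By the authors' deposited table, adjusted p was under 0.05 in 0 of the 32 genes, the smallest being 0.422, against 2.09% of all genes listed there with a p-value.

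The precision was uneven. All 27 intervals (95%) included 0, and for Col4a1, Rgs5 and Tgfb1 the whole interval lay within a 2-fold change either way. For 16 of the 27 it lay within a 4-fold change. In simulated counts drawn from these libraries, the same test recovered 9.23% of genes changed 2-fold, 67.2% of those changed 4-fold and 83.3% of those changed 8-fold. Those genes were drawn from all tested genes, so these shares were not measured at the levels of the 27. The simulation used library sizes without TMM scaling. It thus left out the differences in mitochondrial share between the libraries, and the shares recovered may not hold for them.

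**Figure D1:**
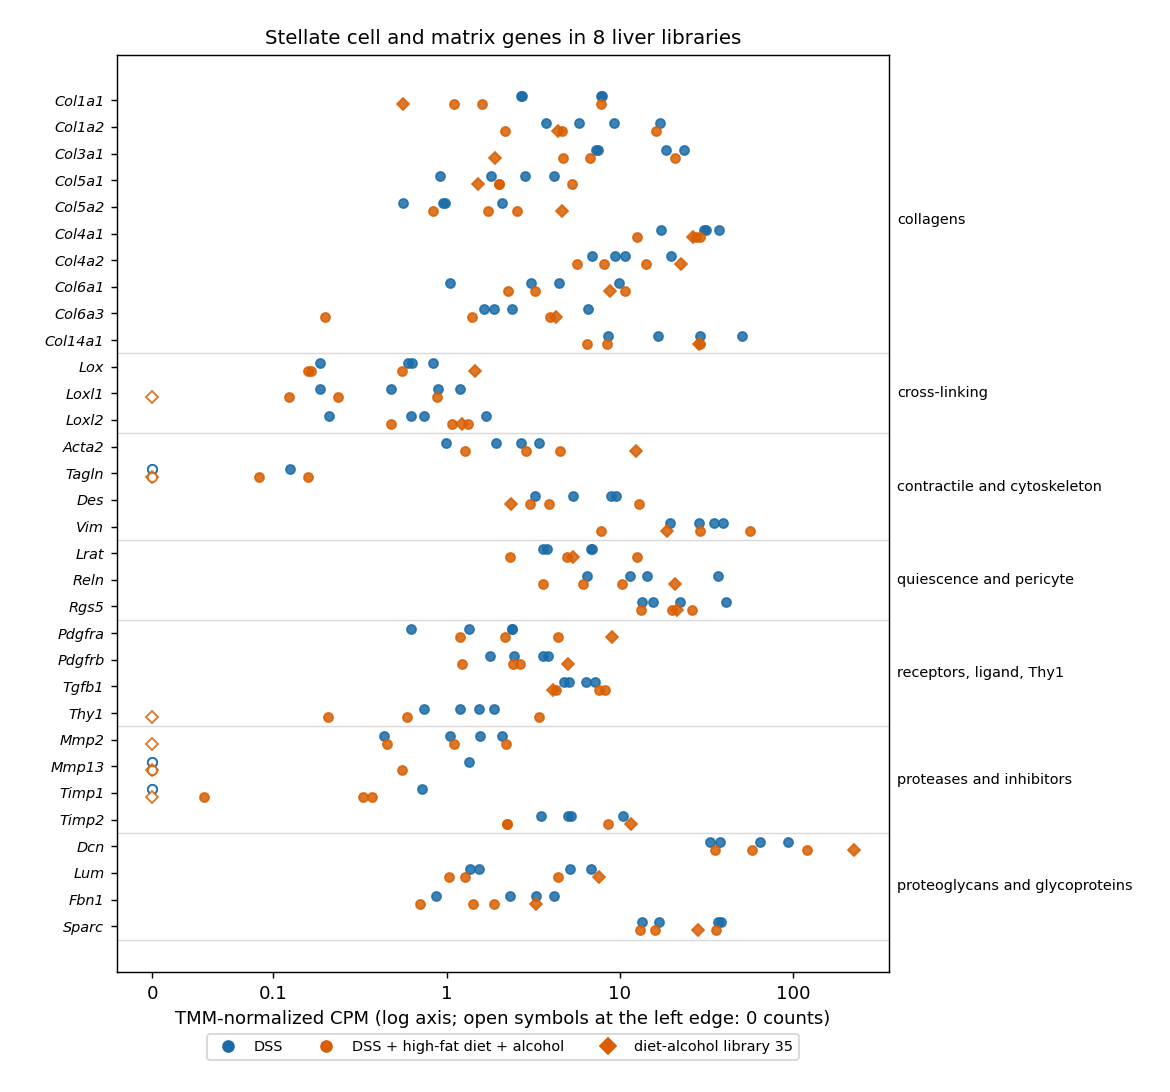
TMM-normalized CPM (log axis) of each of the 32 genes in the 4 DSS libraries (blue) and the 4 diet-alcohol libraries (orange, with library 35 as a diamond), ordered by role; each point is 1 library and open symbols at the left edge are libraries with 0 counts. The 2 groups overlap in all 27 tested genes, and library 35 lies at the high end for Acta2, Pdgfra and Dcn and at the low end for Col1a1, Col3a1 and Thy1.

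Type I and type III collagen, the fibrillar collagens of scar, had lower mean levels in the diet-alcohol group, by less than the spread between libraries. Col1a1 (ENSMUSG00000001506, chr11:94936224-94953042), which encodes the alpha 1 chain of type I collagen, stood at 2.68, 2.74, 7.91 and 7.75 CPM in DSS libraries 15, 48, 49 and 50 and at 0.56, 1.60, 7.84 and 1.11 CPM in diet-alcohol libraries 35, 45, 65 and 71. The 3 diet-alcohol libraries other than library 65 were below every DSS library, and library 65 was as high as DSS libraries 49 and 50. The difference was -0.96 ± 0.75 on the log2 scale (interval -2.61 to 0.68, edgeR adjusted p = 0.707). These levels rest on few reads, 200 counts over the 4 DSS libraries and 148 over the 4 diet-alcohol libraries. In bulk liver, fewer cells of a type and less RNA per cell cannot be told apart.

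Col1a2 (ENSMUSG00000029661, chr6:4504814-4541544), the partner chain, was measured at 3.74, 5.82, 17.1 and 9.24 CPM in the DSS libraries and at 4.42, 4.61, 16.2 and 2.18 CPM in the diet-alcohol libraries. Library 65 was again level with the highest DSS libraries, and the groups overlapped over most of their range (-0.41 ± 0.61, edgeR adjusted p = 0.867). Col3a1 (ENSMUSG00000026043, chr1:45311538-45349706), the type III chain, was at 7.48, 7.29, 23.6 and 18.6 CPM against 1.90, 6.75, 20.7 and 4.72 CPM. It followed the order of Col1a1, with libraries 49, 50 and 65 high in both genes (-0.76 ± 0.64, edgeR adjusted p = 0.728). Without library 65, the differences of Col1a1 and Col3a1 were -2.23 and -1.65 on the log2 scale, and the smallest edgeR adjusted p among the 27 genes was then 0.114. In that run 4 genes (Col1a1, Col1a2, Col3a1 and Des) had an unadjusted p under 0.05 by edgeR, the smallest being 0.0036. Leaving out library 15, 48, 50 or 35 instead gave 0 such genes, library 49 or 45 gave 1 and library 71 gave 2.

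The type V chains, which nucleate type I fibrils, were the scarcest collagens in counts. Col5a1 (chr2:27886425-28039514) ranged from 0.912 to 4.19 CPM in the DSS libraries and from 1.51 to 5.30 CPM in the diet-alcohol libraries, a difference of 0.15 ± 0.58. Col5a2 (chr1:45374321-45503282) was measured at 0.561, 0.982, 0.959 and 2.09 CPM in DSS and at 4.65, 1.73, 2.54 and 0.833 CPM in diet-alcohol libraries. Its difference was the largest positive value among the collagens, 1.11 ± 0.65 (interval -0.32 to 2.55, edgeR adjusted p = 0.582), and it was 0.59 without library 35, which held the highest value. The interval did not reach a 2-fold decrease.

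Type IV collagen forms the network of basement membranes, including the loose one of the space of Disse. Col4a1 (chr8:11198423-11312826) was the most precisely measured collagen, at 17.3 to 37.3 CPM in DSS and 12.5 to 28.9 CPM in diet-alcohol libraries, and its difference of -0.29 ± 0.31 excluded changes beyond 2-fold (interval -0.97 to 0.39, edgeR adjusted p = 0.793). Its head-to-head neighbour Col4a2 (chr8:11312805-11449287), which shares a promoter region with it, ranged from 6.92 to 19.8 and from 5.68 to 22.6 CPM (0.11 ± 0.44). The 2 gene models overlap by 22 bases. Without the strand setting of the counting, which the sources used here do not give, reads in that overlap cannot be assigned with certainty.

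The remaining collagens had overlapping groups as well. Col6a1 (chr10:76708792-76726168) and Col6a3 (chr1:90765923-90843971) encode chains of the beaded microfibrils of type VI collagen. Col6a1 ranged from 1.05 to 9.95 CPM in DSS and from 2.26 to 10.7 CPM in diet-alcohol libraries (0.44 ± 0.65), and Col6a3 from 1.64 to 6.59 and from 0.198 to 4.31 CPM (-0.35 ± 0.78). Col14a1 (chr15:55307750-55520803), a collagen that sits on the surface of fibrils, ranged from 8.60 to 51.0 CPM in DSS and from 6.51 to 28.9 CPM in diet-alcohol libraries (-0.53 ± 0.59). Together the 10 collagens summed to 68.2, 64.5, 178 and 117 CPM in DSS libraries 15, 48, 49 and 50 and to 104, 66.8, 138 and 38.0 CPM in diet-alcohol libraries 35, 45, 65 and 71. The sums overlapped, the highest being DSS library 49 and the lowest diet-alcohol library 71. Of the 10 collagens 4 had positive and 6 negative differences with a median of -0.32, beside -0.01 over all tested genes.

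The cross-linking enzymes were near the limit of detection. Loxl2 (chr14:69609068-69695834), a lysyl oxidase-like enzyme, was the only one of the 3 with enough counts to test, at 0.624, 0.210, 1.68 and 0.745 CPM in DSS and 1.23, 1.07, 1.33 and 0.476 CPM in diet-alcohol libraries. The groups overlapped fully (0.35 ± 0.76, edgeR adjusted p = 0.914). Lox (chr18:52516069-52529867), the founding lysyl oxidase, had 3, 9, 7 and 4 counts in the DSS libraries and 26, 4, 5 and 4 in the diet-alcohol libraries, where the 26 were in library 35. Loxl1 (chr9:58287738-58313186), known for cross-linking elastin, had 3, 17, 4 and 6 counts against 0, 3, 8 and 6. By counting error alone, its count of 0 in library 35 allows a level of up to 0.168 CPM (3 counts). Only 784 genes of library 35 had 1 to 9 counts, so a 0 there, for any gene, may stand for a higher level.

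Among the contractile genes, Acta2 was high in 1 diet-alcohol library. Acta2 (ENSMUSG00000035783, chr19:34241090-34255336) encodes alpha smooth muscle actin, the standard marker of activated stellate cells and also of vascular smooth muscle. It was measured at 0.998, 3.44, 1.92 and 2.68 CPM in DSS libraries 15, 48, 49 and 50 and at 12.4, 1.28, 4.53 and 2.86 CPM in diet-alcohol libraries 35, 45, 65 and 71. Library 35 had more than any other library, library 65 was also above all DSS libraries, and the other diet-alcohol libraries lay within the DSS range. The difference was 1.22 ± 0.65 with all 8 libraries (interval -0.21 to 2.66, edgeR adjusted p = 0.523) and 0.33 without library 35.

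Acta2 and Col1a1 did not share an order across libraries. Library 35 held the highest Acta2 and the lowest Col1a1 of the 8 libraries, while library 65 was high in both. Tagln (chr9:45929619-45936058), which encodes the actin-binding protein transgelin of smooth muscle, had 2, 0, 0 and 0 counts in the DSS libraries and 0, 2, 0 and 4 in the diet-alcohol libraries. On the opposite strand Tagln overlaps the antisense gene Gm48529 over 3627 bases and Pcsk7 over 108 bases. Those genes held 120 and 625 counts over all libraries, so even these few counts of Tagln are uncertain.

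The intermediate filament genes were better measured. Des (chr1:75360329-75368579) encodes desmin, a marker of rodent stellate cells at rest and when activated, and stood at 3.24, 5.40, 8.87 and 9.53 CPM in DSS and 2.35, 3.05, 12.9 and 3.89 CPM in diet-alcohol libraries. Library 65 was the highest of all and the other 3 diet-alcohol libraries lay below the 3 highest DSS libraries (-0.30 ± 0.55, edgeR adjusted p = 0.895). Vim (chr2:13573927-13582826) encodes vimentin, which is made by all mesenchymal cells and by macrophages and endothelium as well, and stood at 19.5, 28.5, 35.1 and 39.5 against 18.7, 7.78, 56.2 and 28.9 CPM. The diet-alcohol libraries spanned a wider range than the DSS libraries on both sides (-0.14 ± 0.48, edgeR adjusted p = 0.951). The median of Acta2, Des and Vim was -0.14.

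None of the 3 genes of quiescent stellate cells and pericytes was called lower. Lrat (ENSMUSG00000028003, chr3:82892579-82903973) encodes lecithin retinol acyltransferase, which makes the retinyl esters stored in stellate cell droplets. It was measured at 3.62, 3.79, 6.95 and 6.85 CPM in DSS and at 5.37, 4.98, 12.5 and 2.34 CPM in diet-alcohol libraries, with library 65 the highest and library 71 the lowest (0.24 ± 0.47, edgeR adjusted p = 0.904). Its interval, -0.80 to 1.28, excluded a 2-fold decrease. Reln (chr5:21884454-22344702) encodes reelin, a secreted glycoprotein of stellate cells, and stood at 11.5, 6.45, 36.8 and 14.3 CPM against 20.8, 6.17, 10.3 and 3.61 CPM. DSS library 49 was the highest, and the difference of -0.76 ± 0.59 (edgeR adjusted p = 0.707) became -1.39 without library 35 and -0.09 without DSS library 49. Rgs5 (chr1:169655501-169695813), a regulator of G protein signalling in pericytes, ranged from 13.5 to 41.1 CPM in DSS and from 13.3 to 26.2 CPM in diet-alcohol libraries, and its interval lay within a 2-fold change (-0.19 ± 0.35).

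Of the receptors and ligands, Pdgfra had the smallest p of all 27 genes. Pdgfra (ENSMUSG00000029231, chr5:75152292-75198215) encodes the alpha receptor for platelet-derived growth factor, carried by stellate cells and portal fibroblasts. It stood at 0.624, 2.38, 2.40 and 1.34 CPM in DSS and at 8.96, 2.18, 4.42 and 1.19 CPM in diet-alcohol libraries, where libraries 35 and 65 were above all DSS libraries and libraries 45 and 71 within their range. The difference was 1.31 ± 0.66 (interval -0.13 to 2.75, unadjusted p = 0.071, edgeR adjusted p = 0.489), and 0.59 without library 35. Pdgfrb (chr18:61045150-61085061), the beta receptor that drives stellate cell proliferation, ranged from 1.79 to 3.83 CPM in DSS and from 1.23 to 5.04 CPM in diet-alcohol libraries (-0.05 ± 0.48).

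Tgfb1 (chr7:25687002-25705077), the main fibrogenic cytokine, stood at 4.74, 7.22, 6.35 and 5.06 CPM in DSS and at 4.14, 4.28, 8.17 and 7.62 CPM in diet-alcohol libraries. The groups overlapped and the interval, -0.66 to 0.75, excluded a 2-fold change in either direction (0.04 ± 0.32, edgeR adjusted p = 0.979). Thy1 (chr9:44043384-44048579), a surface glycoprotein of portal fibroblasts and T cells, was at 1.87, 1.54, 1.20 and 0.745 CPM against 0, 0.206, 3.42 and 0.595 CPM. Library 65 was above and the other 3 diet-alcohol libraries below all DSS libraries, which left the widest standard error of the 27 genes (-0.45 ± 1.10).

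Matrix proteases and their inhibitors were mostly scarce. Mmp2 (chr8:92827291-92853420), a gelatinase made by stellate cells, stood at 0.436, 1.05, 1.56 and 2.09 CPM in DSS and 0, 0.453, 2.21 and 1.11 CPM in diet-alcohol libraries, the count of 0 being in library 35 (-0.46 ± 1.02). Timp2 (chr11:118301069-118355740), an inhibitor that also takes part in Mmp2 activation, ranged from 3.49 to 10.5 and from 2.22 to 11.6 CPM (0.01 ± 0.57, edgeR adjusted p = 0.995). Mmp13 (chr9:7272514-7283331), the main interstitial collagenase of rodents, had 9 counts in DSS library 50, 5 in diet-alcohol library 65 and 0 in the other 6 libraries.

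Timp1 (chrX:20870166-20874735), an inhibitor that activated stellate cells are known to induce, had 0, 0, 6 and 0 counts in the DSS libraries and 0, 9, 3 and 1 in the diet-alcohol libraries. It had 19 counts in all and lies within Syn1, which overlaps it over 4570 bases and held 69 counts. The values of the 2 genes cannot be fully separated without the strand setting.

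The small proteoglycan decorin gave the highest level of the 32 genes. Dcn (ENSMUSG00000019929, chr10:97479609-97518143) binds collagen fibrils and transforming growth factor beta and is expressed by quiescent and activated stellate cells. It was measured at 37.8, 33.0, 93.5 and 64.7 CPM in DSS and at 225, 57.9, 121 and 35.6 CPM in diet-alcohol libraries. Libraries 35 and 65 were above all DSS libraries and libraries 45 and 71 within the DSS range. The difference was 0.94 ± 0.53 (interval -0.21 to 2.10, edgeR adjusted p = 0.546), and 0.32 without library 35.

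Lum (chr10:97565128-97572703), which encodes the collagen-binding lumican, ranged from 1.37 to 6.85 CPM in DSS and from 1.03 to 7.61 CPM in diet-alcohol libraries (-0.04 ± 0.72). Fbn1 (chr2:125300594-125507993), the main protein of elastic microfibrils, ranged from 0.873 to 4.19 and from 0.700 to 3.30 CPM (-0.53 ± 0.61). Sparc (chr11:55394500-55423183), a collagen-binding matricellular protein, ranged from 13.4 to 38.5 and from 13.0 to 36.0 CPM (-0.18 ± 0.41). None of the 4 passed the test, and their median difference was -0.11.

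**Figure D2:**
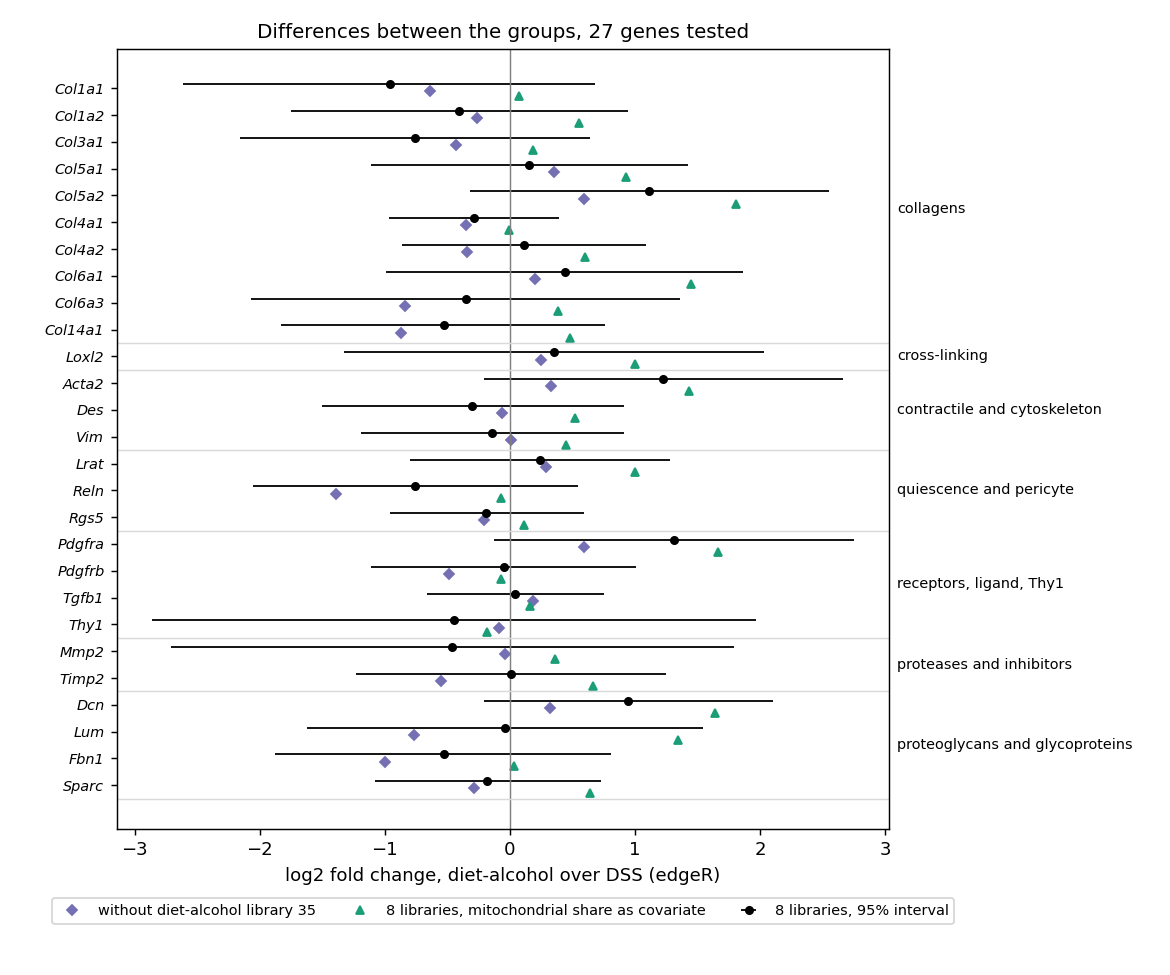
Log2 fold change (diet-alcohol over DSS) for the 27 tested genes, from edgeR: black points with 95% intervals use all 8 libraries, purple diamonds leave out diet-alcohol library 35, and green triangles use all 8 libraries with each library's mitochondrial share as covariate. Every black interval crosses 0, and the triangles lie to the right of 0 for 23 of the 27 genes.

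Compared per gene length, the order of the genes was the same in both groups at the top, while several genes further down changed rank. By the deposited length-normalized values (FPKM), averaged over the 8 libraries, Dcn was highest at 14.0, followed by Sparc at 6.43, Vim at 6.05, Rgs5 at 4.66 and Col4a1 at 3.48 FPKM. These 5 genes held the same ranks in each group. Neighbours in this order overlapped between libraries, Sparc running from 3.33 to 9.92 and Vim from 1.61 to 11.8 FPKM. The fibrillar collagens were far down, Col3a1 at 1.14, Col1a2 at 0.625 and Col1a1 at 0.601 FPKM, and Lrat stood between them at 1.06 FPKM. Acta2 ranked 12 in the DSS group and 6 in the diet-alcohol group, with library 35 at 6.77 FPKM. In the same order of groups, Pdgfra ranked 27 and 20, Col5a2 30 and 24, Col3a1 11 and 15, and Loxl1 25 and 30. Tagln was last at 0.0225 FPKM.

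Much of the variation of these genes ran within the groups. Of the 27 tested genes, 11 had their highest level in library 49, 8 in library 65 and 8 in library 35, while 11 had their lowest in library 71. Libraries 49, 50 and 65 were the 3 in which mitochondrial transcripts took more than 60% of the counts. With library 35 left aside, these 3 were all above libraries 15, 48, 45 and 71 in 15 of the 27 genes (55.6%) and all below in 0, against 4.98% and 4.25% of all tested genes. The 15 were Col1a1, Col1a2, Col3a1, Col5a1, Col4a2, Col6a1, Col14a1, Des, Vim, Lrat, Mmp2, Timp2, Dcn, Lum and Sparc. This ordering was chosen after the values were seen. Of 18 other stellate cell markers tested, 10 showed it too, as did 3 of 12 endothelial, 2 of 4 smooth muscle (Des among them), 0 of 12 Kupffer cell and 0 of 11 hepatocyte markers. Among other pathway genes it was seen in 8 of 23 for transforming growth factor beta signalling (34.8%) and in 9 of 26 other matrix proteins (34.6%). It was rarer in procollagen processing (2 of 15, 13.3%) and matrix degradation (1 of 12, 8.33%), and absent in platelet-derived growth factor signalling (0 of 8). Of the markers of activated myofibroblasts, 2 of 10 showed it.

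The direction of many differences turned with how this share was handled. When the mitochondrial share was a covariate, 23 of the 27 differences were positive and 4 negative, with a median of 0.52, where all genes had a median of -0.02. Still 0 genes were called (edgeR, against 0.469% of all genes), Lrat and Dcn having an unadjusted p under 0.05, and the smallest adjusted p was 0.348. Without library 35 and with the covariate, 22 were positive with a median of 0.43, 0 were called (2.7% of all genes) and the smallest edgeR adjusted p was 0.097. Within the low-share libraries (15 and 48 against 45 and 71), the diet-alcohol mean was above the DSS mean in 8 and below in 19 of the 27 genes, with a median log2 ratio of -0.24. Within the high-share libraries (49 and 50 against 65), it was above in 15, below in 11 and equal after rounding for Col1a1, with a median of 0.13; no test was run within these sets. Share and group went partly together (means of 65.2% in DSS and 45.2% in diet-alcohol libraries), so a fit of 8 libraries cannot fully separate them. Libraries 49, 50 and 65 also had the fewest nuclear counts (3791634, 2722757 and 3453086) and the lowest TMM factors (0.664, 0.516 and 0.71). Share, nuclear depth and scaling therefore cannot be told apart in this ordering. The part of the mitochondrial share in these results was not tested further.

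**Figure D3:**
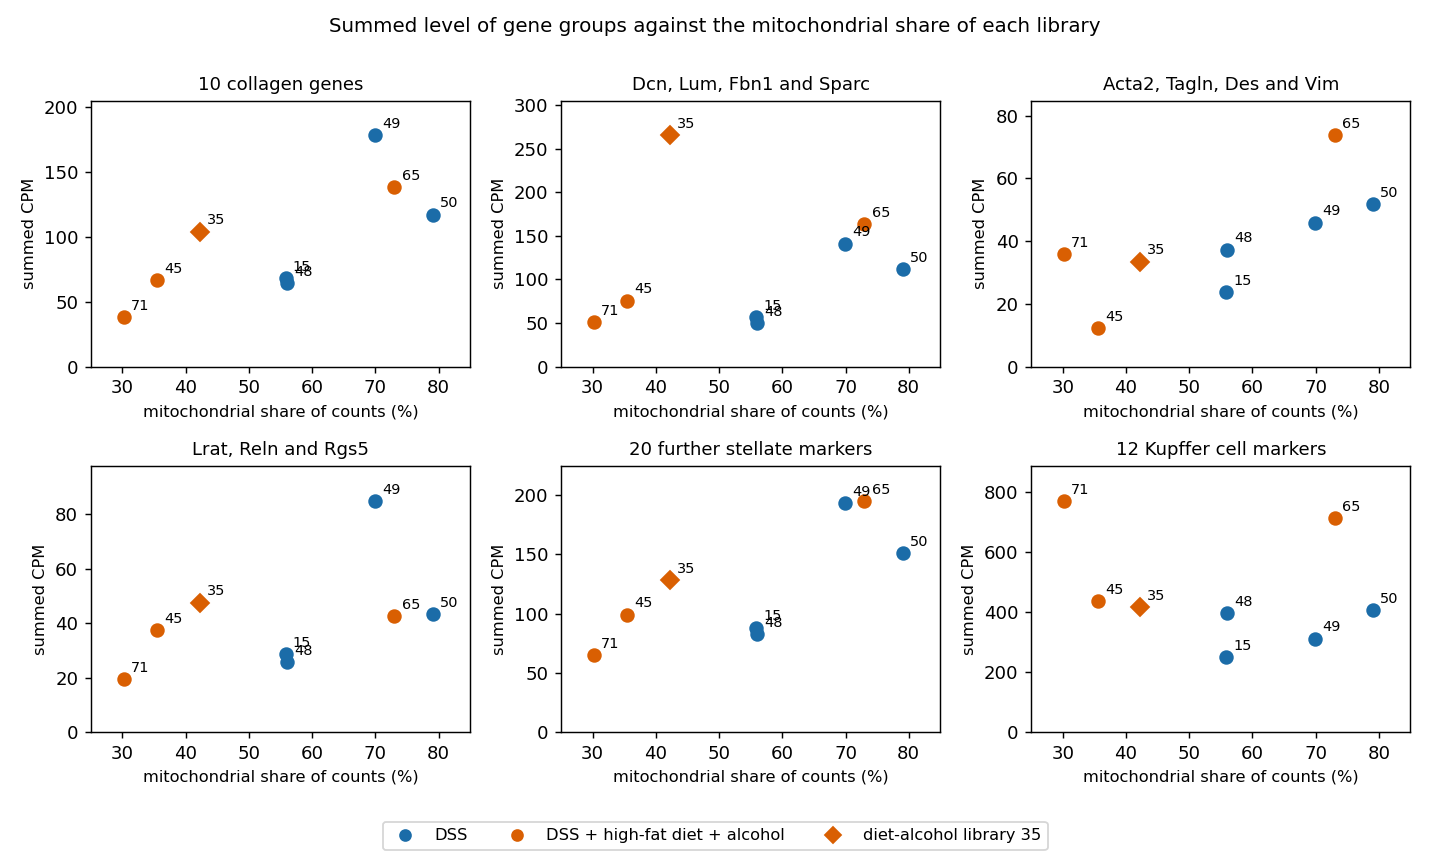
Summed CPM of 6 gene groups in each library against the percentage of that library's counts from mitochondrially encoded genes; points are single libraries with their numbers, blue for DSS, orange for diet-alcohol and a diamond for library 35. Libraries 49, 50 and 65, above 60% on the x axis, hold the 3 highest collagen sums (178, 117 and 138 CPM), whereas the Kupffer cell sums are higher in every diet-alcohol library (418 to 771 CPM) than in any DSS library (250 to 408 CPM).

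Other genes of the same pathways were counted in the same way. Of 27 other genes of transforming growth factor beta signalling, 23 were tested and 0 were called by edgeR (3 at an unadjusted p under 0.05; 1 by DESeq2, 0 by limma-voom). Their median was -0.41, with 20 negative and 3 positive differences. The gene with the smallest p was Ltbp4 (chr7:27305136-27337692), whose protein tethers latent transforming growth factor beta to the matrix. It stood at 7.36, 11.1, 20 and 22.2 CPM in DSS and at 5.76, 2.30, 6.07 and 1.79 CPM in diet-alcohol libraries. Every diet-alcohol library was below every DSS library, and the groups did not overlap in 8.77% of all tested genes. The difference was -1.94 ± 0.48 (edgeR adjusted p = 0.090, DESeq2 adjusted p = 0.0039). Ltbp4 passed the threshold without the filter on low counts (edgeR adjusted p = 0.017). With the mitochondrial covariate it did not (-1.07, edgeR adjusted p = 0.505), and with that covariate and without library 35 it did (-1.40, edgeR adjusted p = 0.030).

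Of 10 genes of platelet-derived growth factor signalling, 8 were tested and 0 were called (edgeR; 0 at an unadjusted p under 0.05, 0 by DESeq2 and 0 by limma-voom), with a median of 0.17. Grb2, an adaptor protein, had the smallest p (0.39 ± 0.19, edgeR adjusted p = 0.488). Of 24 genes that hydroxylate, fold and trim procollagen, 15 were tested, 0 were called by edgeR (2 at an unadjusted p under 0.05; 0 by DESeq2 and 0 by limma-voom), and the median was -0.10. Plod3, a collagen lysyl hydroxylase, had the smallest p there (-0.69 ± 0.28, edgeR adjusted p = 0.339). P4ha3 and Tll1 had no count in any library.

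Of 33 other matrix proteins listed, 26 were tested and 0 were called by edgeR, 4 having an unadjusted p under 0.05, while DESeq2 called 3 and limma-voom 0, and the median was -0.28. Hspg2 (ENSMUSG00000028763, chr4:137468769-137570630) encodes perlecan, a heparan sulfate proteoglycan of basement membranes. It was measured at 12.7, 10.7, 15.1 and 20.1 CPM in DSS and at 5.88, 6.67, 8.17 and 5.95 CPM in diet-alcohol libraries. All diet-alcohol libraries were below all DSS libraries, where 8.77% of all tested genes had groups that did not overlap. The difference of Hspg2 was -1.13 ± 0.26 (edgeR adjusted p = 0.066). It passed the threshold without library 35 (edgeR adjusted p = 0.044), without the filter on low counts (0.044) and in DESeq2 (0.014), but not in limma-voom (0.078) or with the mitochondrial share as covariate, with library 35 (-0.79, 0.407) or without it (-0.75, 0.191).

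A pair of further collagens, named after their values were seen, lay in the same direction. Col18a1 (chr10:77052178-77166548), a basement membrane collagen made by hepatocytes and the source of endostatin, was at 267, 554, 486 and 468 CPM in DSS and 133, 233, 225 and 254 CPM in diet-alcohol libraries (-1.07 ± 0.29, edgeR adjusted p = 0.121, DESeq2 adjusted p = 0.017). Col27a1 (chr4:63214004-63334991), a fibrillar collagen, was at 28.7, 40.5, 44.2 and 45.4 against 7.84, 13.8, 28.6 and 17.7 CPM (-1.23 ± 0.35, edgeR adjusted p = 0.143, DESeq2 adjusted p = 0.037). Col27a1 also passed without the filter on low counts (edgeR adjusted p = 0.029) and without library 65 (-1.59, 0.039). With the mitochondrial covariate the edgeR adjusted p was 0.381 for Col18a1 (-1.04) and 0.501 for Col27a1 (-0.84). In both genes the groups did not overlap, which held for 8.77% of all tested genes. Both were called by DESeq2, as in the authors' deposited table (adjusted p of 0.018 and 0.038).

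Of 23 other genes of matrix degradation, 12 were tested and 0 were called by edgeR, 1 having an unadjusted p under 0.05 (1 by DESeq2, 0 by limma-voom), with a median of -0.21. That gene was Timp3 (chr10:86300372-86349506), an inhibitor bound to the matrix, at 2.12, 4.21, 3.59 and 3.72 CPM in DSS and 1.62, 0.823, 1.10 and 0.714 CPM in diet-alcohol libraries. All diet-alcohol libraries were lower than all DSS libraries (-1.68 ± 0.47, edgeR adjusted p = 0.145), where 8.77% of all tested genes had groups that did not overlap. Without library 35 the difference was -1.97 and passed the threshold (edgeR adjusted p = 0.031), as it did in DESeq2 (adjusted p = 0.031). It did not pass in limma-voom (adjusted p = 0.145), without the filter on low counts (edgeR, 0.24), or with the mitochondrial covariate (-1.46, edgeR adjusted p = 0.496), also when library 35 was left out (-1.72, 0.108).

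**Figure D4:**
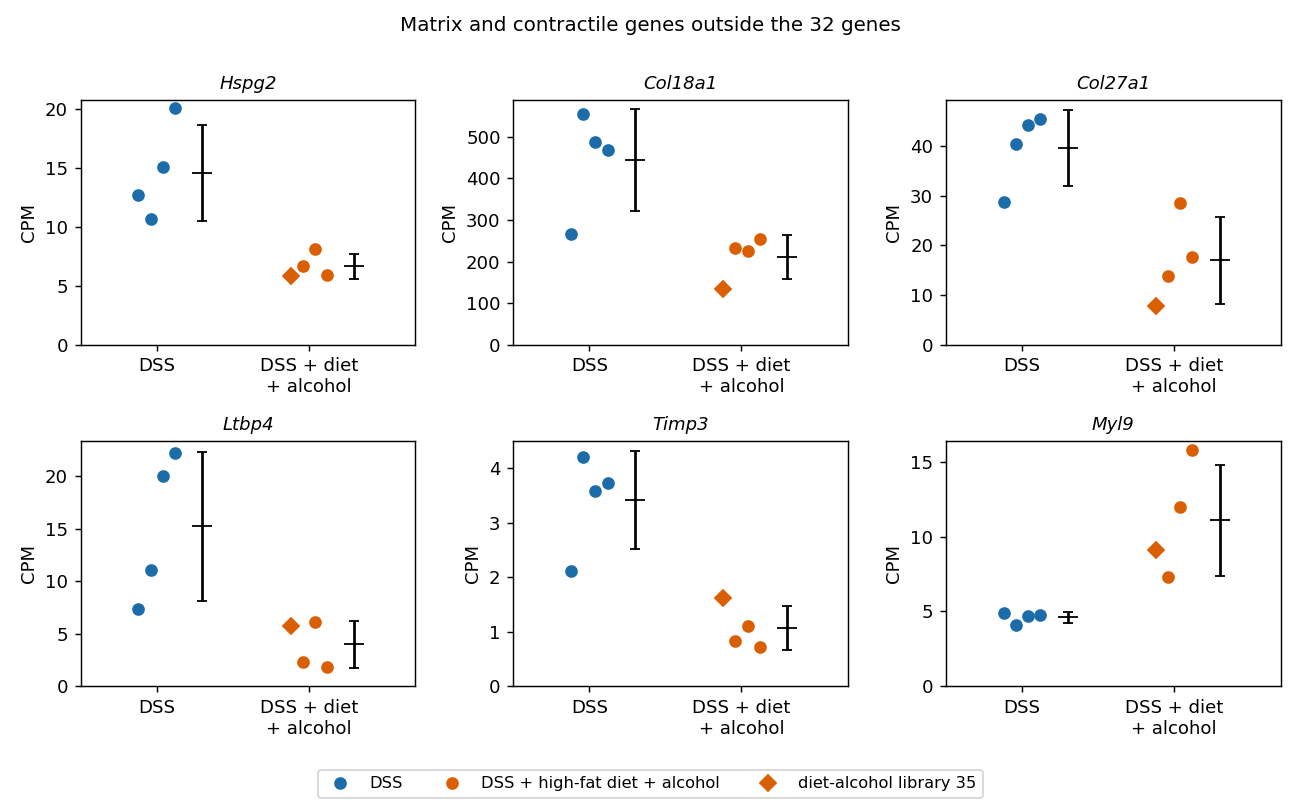
CPM of 6 matrix and contractile genes outside the 32, per library (points, with library 35 as a diamond) and as the mean with SD (bars, n = 4 per group). Hspg2, Col18a1, Col27a1, Ltbp4 and Timp3 are lower and Myl9 is higher in every diet-alcohol library than in any DSS library. The groups did not overlap in 8.77% of all tested genes, and these 6 were named for a small p or after their values were seen. None of the 6 passed the edgeR threshold in the filtered fit of all 8 libraries. Hspg2, Col27a1, Ltbp4 and Myl9 passed it without the filter on low counts.

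Markers of stellate cells and their neighbours were set beside these values. Of 20 further stellate cell markers, 18 were tested and 0 were called by edgeR (1 at an unadjusted p under 0.05; 1 by DESeq2, 0 by limma-voom). Their sum ran from 82.9 to 193 CPM in DSS and from 64.8 to 195 CPM in diet-alcohol libraries, and Vipr1 was among the most abundant. Of 17 markers of activated myofibroblasts, 10 were tested, 0 were called by edgeR (1 at an unadjusted p under 0.05; 1 by DESeq2, 0 by limma-voom), and the median was 0.30; Tpm1 and Spp1 were the most abundant, and Cthrc1 and Il11 had no count in any library.

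Among the myofibroblast markers, Myl9 (chr2:156775420-156781658), a myosin light chain of contractile cells, had the smallest p and is named after its values were seen. It stood at 4.93, 4.07, 4.67 and 4.77 CPM in DSS and at 9.12, 7.33, 12 and 15.8 CPM in diet-alcohol libraries. All of the latter were above all of the former, where 8.77% of all tested genes had groups that did not overlap. The difference was 1.26 ± 0.29 (edgeR adjusted p = 0.065), and it passed without library 35 (edgeR adjusted p = 0.018), without the filter on low counts (0.044) and in DESeq2 (0.015), but not in limma-voom (0.143). With the mitochondrial covariate the difference was 1.27 (edgeR adjusted p = 0.215), and with that covariate and without library 35 it was 1.34 and passed (0.041).

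Markers of other liver cells were summed in the same way. Kupffer cell markers summed to 250 to 408 CPM in DSS and 418 to 771 CPM in diet-alcohol libraries, led by Cd5l and Marco, and 1 of 12 tested (Marco) was called higher by edgeR. DESeq2 and limma-voom also called 1, and edgeR called 0 without library 35, without the filter on low counts or with the mitochondrial covariate. With that covariate and without library 35, edgeR called 1. Neutrophil markers summed to 4.19 to 16.2 and 35.6 to 82.0 CPM, led by S100a9 and S100a8, and 4 of 5 tested were called higher by edgeR. That count was 4 without library 35 and by DESeq2, 3 without the filter, 2 by limma-voom and 1 with the mitochondrial covariate. It was 3 with the covariate and without library 35. Endothelial markers summed to 135 to 249 and 95.1 to 213 CPM, led by Stab1 and Stab2, with 0 of 12 called by edgeR (4 at an unadjusted p under 0.05; 1 by DESeq2, 0 by limma-voom). Hepatocyte markers summed to 44900 to 70300 and 28500 to 40200 CPM, led by Alb and Apoa1, with 0 of 11 called by edgeR. The count was 3 at an unadjusted p under 0.05, 2 by DESeq2 and 0 by limma-voom. With the covariate and without library 35, edgeR called 2. The sums of Kupffer, neutrophil and hepatocyte markers did not overlap between the groups, while those of all stellate lists did. For Kupffer markers the gap was narrow, 408 against 418 CPM. These sums were not tested, and how often sums of other lists part the groups was not computed. Single tested genes did so in 8.77% of cases. Hepatocyte markers had by far the highest sum of these lists in every library, which is what the label liver tissue calls for.

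Marker lists of cells that can share genes with stellate cells had overlapping sums. Smooth muscle markers summed to 19.7 to 35.2 CPM in DSS and 16.0 to 52.4 CPM in diet-alcohol libraries, with Mylk and Des the most abundant and 0 of 4 tested called by edgeR (0 at an unadjusted p under 0.05; 0 by DESeq2 and 0 by limma-voom). Portal fibroblast and mesothelial markers summed to 6.80 to 13.9 and 0.560 to 10.8 CPM, with Dpt and Gas1 the most abundant, 0 of 2 tested called and Upk1b without a count in any library. Cholangiocyte markers summed to 21.8 to 37.5 and 15.2 to 73.0 CPM, with Spp1 the most abundant and 0 of 5 called, and B and T cell markers to 4.31 to 5.96 and 1.39 to 8.50 CPM, mostly Cd3g and Trac, with 0 of 1 called and Ncr1 without a count. In these 3 lists the counts at an unadjusted p under 0.05, by DESeq2 and by limma-voom were also 0. Library 65 held the highest smooth muscle, cholangiocyte and B and T cell sums, and it was also the highest diet-alcohol library for Col1a1, Col1a2, Col3a1, Des and Vim. The part of these cells in the values of the collagens and filaments was not tested.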

How the data were processed

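Counts per gene and library were deposited by the authors, and the genome builds GRCm38 and mm10 are named per the submitters' processing notes. No aligner, counter or strandedness is given in the sources used here. mRNA libraries were made with a SMARTER kit, per the labels' protocols. The authors' deposited FPKM values were checked to be these counts divided by gene length and an effective library size (genes with at least 50 counts). The authors' deposited log2 fold change and p-value columns come from their own comparison and are quoted only where named; their deposited group mean signal was not used.

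Genes were filtered with filterByExpr (11729 of 20694 genes with more than 1 count), scaled by TMM and fitted with edgeR 4.0.16 (robust quasi-likelihood F test, R 4.3.3), adjusted by Benjamini-Hochberg over all genes tested, threshold 0.05. Intervals are 95% intervals of that fit. The test was tried on simulated counts (11487 genes tested). Single values were compared with an exact permutation test over 70 assignments. The fit was repeated with upper-quartile or RLE normalization, DESeq2 1.42.0, voom in limma 3.58.1, no filter, 1 CPM in 4 libraries, no mitochondrial genes, the mitochondrial share as a covariate and leaving out each library; leaving out library 35 together with the covariate was added after the values were seen.

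The 32 genes, the gene lists and the rules were chosen with earlier results of these data known. The text names every one of the 32, of each other pathway list the called genes (up to 3) or else the gene with the smallest p, and of each marker list the 2 most abundant genes, some of which are not reported here; others are said to be named after their values were seen. Depth and floors cover counting error only. Coordinates are GRCm38 gene bounds as the table gives them, and 17 of the 32 genes overlap another gene, 12 on the opposite strand. No sequences are shown.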

Additional observations from a re-analysis of the deposited data

Results flagged for a closer look

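Each of the 32 genes was checked in both groups of 4 libraries for a highest or lowest library far from the other 3 (Dixon's ratio above its 95% critical value). Of 64 groups, 9 had one. A chance rate of about 1 group in 20 holds for independent, normally distributed values. These genes share the same 8 libraries and some have low counts, so the 9 cannot be set against that rate. Library 65 was far above the rest of the diet-alcohol group for Col1a1 (7.84 CPM, next highest 1.60), Col5a1 (5.30, next 2.02) and Des (12.9, next 3.89). Library 71 was far below it for Col4a1 (12.5 CPM, next lowest 26.5), and in the DSS group library 49 was far above the rest for Col6a3 (6.59 CPM, next highest 2.38).

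The other 4 cases rest on 9 counts or fewer, with 0 in the other 3 libraries of the group, where the ratio is 1.0 whatever the count. They were Tagln in DSS library 15 (0.125 CPM), Mmp13 in DSS library 50 (1.34 CPM) and in diet-alcohol library 65 (0.552 CPM), and Timp1 in DSS library 49 (0.719 CPM). Library 35, which stood apart over all genes, gave 0 of the 9.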

How the results depend on the processing

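No paired analysis was possible because each library number occurs in 1 group only. The count of 0 called, higher or lower, was the same under every alternative run for those of the 32 genes that the run tested. These were 27 genes in most runs, 26 with the 1 CPM filter, and 32 without a filter and in DESeq2. DESeq2 gave no adjusted p for Tagln and Timp1. The count over all genes was 148, and 441 with DESeq2, 249 without a filter, 55 with the mitochondrial covariate and 327 with the covariate and without library 35; leaving out 1 library gave 58 (without 48) to 308 (without 35), with 74, 77 and 83 without 49, 50 and 45. With the covariate the median log2 fold change moved to 0.52 for the tested genes, 0.52 for collagens, 0.51 for proteases and inhibitors and 0.99 for proteoglycans and glycoproteins, and for contractile genes to 0.65 with the covariate and without library 35. Signs turned with the covariate for Col14a1 (0.48), Col1a1 (0.07), Col1a2 (0.55), Col3a1 (0.18), Col6a3 (0.38), Des (0.52), Fbn1 (0.03), Lum (1.34), Mmp2 (0.36), Rgs5 (0.11), Sparc (0.64) and Vim (0.45), and with the covariate and without library 35 for Col14a1 (0.01), Col1a1 (0.30), Col1a2 (0.57), Col3a1 (0.43), Des (0.68), Lum (0.41), Mmp2 (0.72), Rgs5 (0.08), Sparc (0.45), Thy1 (0.15) and Vim (0.52). They turned in limma-voom for Tgfb1 (-0.05) and Timp2 (-0.35) and without a filter for Timp2 (-0.02). Leaving out 1 library gave -1.25 to 0.11 for Col1a2, -0.34 to 0.47 for Col4a2, -0.37 to 0.55 for Col5a1, -0.84 to 0.28 for Col6a3, -0.32 to 0.52 for Lrat, -0.77 to 0.41 for Lum, -0.49 to 0.21 for Pdgfrb, -0.38 to 0.24 for Rgs5, -0.47 to 0.05 for Sparc, -0.13 to 0.18 for Tgfb1, -0.55 to 0.39 for Timp2 and -0.73 to 0.17 for Vim. The causes were not tested. RLE, upper-quartile normalization, DESeq2, the 1 CPM filter and leaving out mitochondrial genes turned no sign. Low counts limit Lox, Loxl1, Tagln, Mmp13 and Timp1, which could not be tested, and the share of nuclear reads limits libraries 49, 50 and 65.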

Other observations

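Ratios between genes of the same library do not depend on its depth, and 6 were computed from the FPKM values, with no test. The ratio of Col1a1 to Lrat was 0.604, 0.589, 0.928 and 0.922 in DSS libraries 15, 48, 49 and 50 and 0.0849, 0.263, 0.512 and 0.387 in diet-alcohol libraries 35, 45, 65 and 71. For this 1 of the 6 ratios every diet-alcohol library was below every DSS library, also with library 35 left aside. Col1a1 had only 10 counts in library 35 and 28 in library 71. How often ratios of other genes part the groups was not computed, while single tested genes did so in 8.77% of cases. The other 5 ratios overlapped between the groups: Col1a1 to Col1a2 was 0.874 to 1.59 in DSS and 0.240 to 0.964 in diet-alcohol libraries, Col1a1 to Col3a1 0.501 to 0.622 and 0.352 to 0.568, Col4a1 to Col4a2 1.65 to 4.03 and 1.04 to 3.18, Mmp2 to Timp2 0.144 to 0.462 and 0 to 0.578, and Timp1 to Timp2 0 to 0.299 and 0 to 0.731.

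A few genes outside the 32 drew attention after their values were seen. Tcf21, a transcription factor of quiescent stellate cells, was at 1.87, 1.26, 5.03 and 4.17 CPM in DSS and at 0, 0.412, 1.21 and 0.556 CPM in diet-alcohol libraries (-2.54 ± 0.91, edgeR adjusted p = 0.265). Kdr, the vascular endothelial growth factor receptor of sinusoidal endothelium, was at 5.92, 13.7, 19.3 and 24.6 CPM against 5.21, 6.05, 7.18 and 2.78 CPM (-1.58 ± 0.43, edgeR adjusted p = 0.123). Thbs1, which encodes an activator of latent transforming growth factor beta, was at 1.18, 1.05, 1.44 and 1.94 CPM against 7.84, 2.14, 1.88 and 4.33 CPM (1.55 ± 0.53, edgeR adjusted p = 0.239). None of these 3 passed the edgeR threshold, and only Tcf21 had groups that did not overlap, which held for 8.77% of all tested genes.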
